A study of Homo sapiens with 22 samples.

Results

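The 35 genes described here encode proteins of the synaptic vesicle and of regulated exocytosis. They were taken as a fixed list of names, out of 19775 genes with a probeset that names a single gene, and each was read from the brightest such probeset by mean log2 signal. The data are 22 Affymetrix HG-U133 Plus 2.0 arrays of RNA, with 1 for each of 11 human neuroblastoma cell lines in normoxia (20% O2) and in hypoxia (1% O2), 18 hours each. The study asked which genes respond to low oxygen in neuroblastoma, a childhood tumor of the sympathetic nervous system. The cell lines were also compared by class, neuroblastic against adherent, because these genes differ mainly between lines.

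The 6 neuroblastic lines were GI-LI-N, IMR-32, SK-N-SH, SK-N-BE2(C), SK-N-F1 and LAN-1. The 5 adherent lines were ACN, GI-ME-N, SHEP-2 and SHEP21N labelled without and with MYCN overexpression. All 11 are established lines grown in the same medium. SHEP21N is a SHEP clone with MYCN under tetracycline control, and the line labelled without overexpression was grown with 50 ng/mL tetracycline. The class is not part of the labels. It follows what is generally known of the morphology of these lines, and it was chosen with earlier results of these data known. The adherent class was taken as low in MYCN, the transcription factor gene often amplified in aggressive neuroblastoma, so MYCN is not an independent check.

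Each line had 1 array in a condition, and no cultures were repeated. MYCN signals were 33350 to 67627 in 5 neuroblastic lines and 5788 and 6119 in SK-N-F1, and at most 55.3 in the adherent lines. SHEP21N labelled with overexpression had 19 in normoxia and 6 in hypoxia, so its label was not borne out at this probeset, and whether the probeset reads the transgene was not tested. High MYCN and neuroblastic class therefore cannot be told apart. The arrays of IMR-32, SK-N-SH and GI-LI-N correlated at 0.900 to 0.906 in normoxia, against 0.835 to 0.873 for the other neuroblastic pairs and a median of 0.903 for the 2 arrays of a line. SHEP-2 and SHEP21N share a parental line, and as background this parental line is SK-N-SH, whose high MYCN goes against its label. In normoxia SHEP-2 correlated at 0.778 and 0.754 with the SHEP21N lines and at 0.778 with GI-ME-N, so its array was not nearer to theirs. The SHEP21N lines correlated at 0.860 with each other. Their arrays had a lowest signal of 3.3 each, against 0.09 to 0.80 on the other arrays, and values with 1 decimal. The part of this difference in the correlations was not tested. For the comparison of classes, IMR-32, SK-N-SH and GI-LI-N were therefore averaged into 1 line, and the 3 SHEP lines were averaged by origin. This left 4 neuroblastic against 3 adherent independent lines. The normoxic array of SHEP21N labelled with overexpression stood apart by its RNA quality, with a 3′ to 5′ ratio of 67.3 for GAPDH against at most 1.40 on the other 21 arrays, and of 94.0 for ACTB. The normoxic array of SHEP21N without overexpression had an ACTB ratio of 5.05, against at most 2.85 on the other 20.

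Of the adrenergic neuroblast markers, 6 of 8 were measured, and PHOX2A, DBH and ISL1 were higher in the neuroblastic class. Of the 8 mesenchymal markers, CAV1 and YAP1 were higher in the adherent class, with TWIST1 brighter in the neuroblastic lines (log2 difference 1.19, limma adjusted p = 0.478). Of the markers of leukocytes, endothelium and Schwann cells, 0 of the 7 measured were called between the classes in limma and 0 had an unadjusted p under 0.05, with S100B at signals of 5067 and 4184 in ACN and at most 132.7 on the other arrays.

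Synaptic vesicles store transmitter, and dense-core granules store peptides and, in sympathetic cells, catecholamines. Both fuse with the plasma membrane when calcium enters, through SNARE proteins that are prepared by priming factors, held by complexins and triggered by synaptotagmins. RAB3 proteins and active zone scaffolds bring vesicles to release sites, and endocytic proteins retrieve the vesicle membrane afterwards. Sympathetic neuroblasts and chromaffin cells carry this machinery, while mesenchymal cells rely on the constitutive secretory pathway.

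In normoxia, 10 of the 35 genes were higher in the neuroblastic lines and 1, CADPS2, was lower (limma over all genes, Benjamini-Hochberg adjusted p under 0.05). The 10 were SYT1, SYT4, CPLX1, CPLX2, UNC13A, SYP, SYN1, RAB3C, SCG3 and SNAP91, with log2 differences of 3.22 to 7.70. Of all genes tested, 1.13% were higher and 0.465% lower. The median difference was 2.77 on the log2 scale over the 35 genes against 0.07 over all genes, and 30 of the 35 differences were positive. With the 11 lines counted singly, 18 genes were higher, against 4.78% of all genes, and 1 was lower, against 3.27%. In 15 of the 35 genes every neuroblastic line lay above every adherent line in normoxia, which was so for 4.45% of all genes. The opposite order was found for CADPS2 alone among the 35, and for 2.32% of all genes. Of the 35 genes, 31 passed a mean signal of at least 100 over all arrays. These are bulk RNA samples, so fewer cells expressing a gene and less RNA per cell cannot be told apart.

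**Figure D1:**
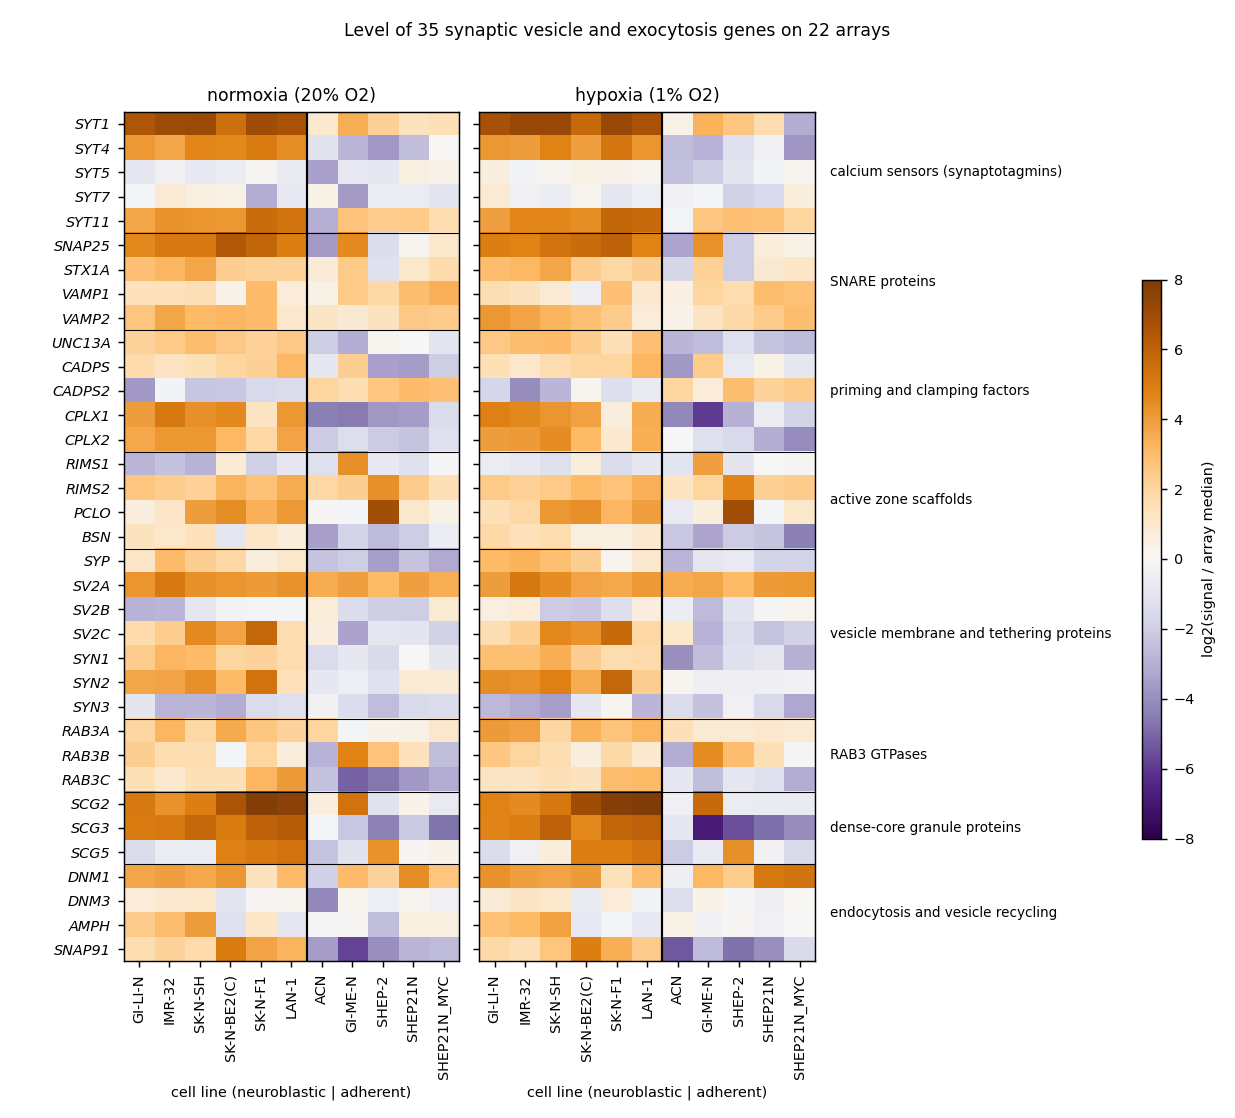
Level of each of the 35 genes (rows, by role) in each cell line (columns; 6 neuroblastic lines left and 5 adherent lines right of the black line) as log2 of the signal divided by the array median, normoxia in the left panel and hypoxia in the right panel. CPLX1, CPLX2, SYP, RAB3C, SCG3 and SNAP91 were above the array median in all 6 neuroblastic lines and below it in all 5 adherent lines in normoxia, and the 2 panels look much alike.

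Levels are given here as MAS5 signals or as log2 of the signal divided by the array median, where 0 is the median of all probesets on that array. In normoxia the neuroblastic lines had 27 to 30 of the 35 genes above the array median and the adherent lines 13 to 20. Of the 35 genes, 24 were above it in all 6 neuroblastic lines. SYT1, VAMP1, VAMP2, RIMS2 and SV2A were above it in all 11 lines, so part of the machinery was read in both classes. No share over all genes was counted for these levels. Each gene was read at its brightest probeset, which favours levels above the median of all probesets. The calls were spread unevenly over the roles, from 0 of the 4 SNARE proteins and 0 of the 4 active zone scaffolds to 4 of the 5 priming and clamping factors.

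Promoter sequence is shown for 3 of the genes higher in the neuroblastic lines, because their start regions hold both parts of the RE1 element. RE1 is the site bound by REST, a repressor known to silence neuronal genes in other tissues. The sequences are those of RefSeq on GRCh38.p14, 5′ to 3′, with the parts TTCAGCACC and GGACAG in capitals and the bases between them in lower case.
SYN1: gccagcTTCAGCACCgcGGACAGtgcctt
SCG3: aacTTCAGCACCcacagggcGGACAGcgc
UNC13A: tggTTCAGCACCgggggcgcGGACAGcgc
The SYN1 sequence is chrX:47620068-47620096 on the minus strand, the strand of the gene, and its element runs from 233 to 217 bases before the start. The SCG3 sequence is chr15:51681508-51681536 on the plus strand, the strand of the gene, and its element lies at bases 9 to 31 of the transcribed part. The UNC13A sequence is chr19:17688337-17688365 on the plus strand, opposite to the gene, and its element spans the start, from 8 bases before it to base 15 after it. SYN1 had 2 bases between the parts, and SCG3 and UNC13A had 8.

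Windows of 250 bases before to 50 bases after the start were matched for 28 of the 35 genes. CAGCACC and GGACAG with 2 bases between them were found on either strand in 1 of the 28, SYN1, and in 0.0586% of all 27305 genes with a window. The same letters with 8 bases between them were found in SCG3 and UNC13A and in 0.0183% of all genes, a spacing that was looked at after the sequences had been seen. TTCAGCACC alone, which overlaps the first part, was found in these 3 genes and in 0.469% of all genes. CAGCACC by itself was found in 8 of the 28 genes and in 9.3% of all genes, and GGACAG by itself in 9 of the 28 and in 24% of all genes. A match describes the letters in the window and is not a measured site. REST itself had normoxic signals of 91.2 to 291 in the neuroblastic lines, with a median of 185. In the adherent lines it had 357 in ACN, 783 in GI-ME-N, 610 in SHEP-2, 934 in SHEP21N and 841 in SHEP21N labelled with overexpression. The classes were apart in these signals but overlapped relative to the array median, where GI-LI-N (1.62) lay above ACN (1.47). The difference of -1.84 ± 0.65 (log2, standard error, 4 against 3 lines) did not pass the limit (limma adjusted p = 0.255). With the 11 lines counted singly REST passed it (adjusted p = 0.0451).

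Synaptotagmins are the calcium sensors of exocytosis. SYT1, the sensor of fast release, had normoxic signals of 4443 in SK-N-BE2(C) to 12166 in IMR-32 over the 6 neuroblastic lines, with a median of 9039. Adherent lines had SYT1 at 248 in ACN, 796 in GI-ME-N, 611 in SHEP-2, 233 in SHEP21N and 315 in SHEP21N labelled with overexpression. The classes did not overlap, and SYT1 was still above the array median in every adherent line. The mean log2 level was 6.48 ± 0.70 (SD, n = 4) in the neuroblastic and 2.04 ± 1.31 (SD, n = 3) in the adherent lines, a difference of 4.44 (limma adjusted p = 0.0212), or 21.7-fold.

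SYT4, a synaptotagmin found on dense-core and other vesicles, had normoxic signals of 1193 in IMR-32 to 2591 in SK-N-F1, with a median of 1815. The adherent signals were 59.4 in ACN, 10.4 in GI-ME-N, 10.3 in SHEP-2, 15.7 in SHEP21N and 111 in SHEP21N labelled with overexpression. SYT4 thus had a narrow range in the neuroblastic lines, and its lowest neuroblastic signal lay far above the highest adherent one. The difference was 6.53 ± 0.55 (log2, standard error; limma adjusted p = 0.00177).

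SYT11 had a neuroblastic range of 1260 to 3820 and lay above all adherent lines, which had 355 to 677 apart from 15.6 in ACN. Its difference of 4.18 ± 1.30 did not pass the limit (limma adjusted p = 0.197), and among the adherent lines ACN stood 4.78 log2 units below the next line. SYT7, a high-affinity calcium sensor of slower release, had 9.25 to 165 in the neuroblastic and 5.69 to 168 in the adherent lines. SYT5 had at most 132 in any line in normoxia. Both had wide overlap between the classes, with differences of 0.58 and 1.00 (limma adjusted p = 0.855 and 0.614).

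Of the 4 SNARE proteins, 0 passed the limit in the comparison of independent lines, with 1 at an unadjusted p under 0.05 in limma. Over all genes, 2786 of 19775 had an unadjusted p under 0.05 in that comparison, in either direction. SNAP25, the plasma membrane SNARE of neurons, had normoxic signals of 2062 in LAN-1 to 8785 in SK-N-BE2(C), with a median of 2947. Among the adherent lines it had 10.1 in ACN, 1609 in GI-ME-N, 50.8 in SHEP-2, 102 in SHEP21N and 224 in SHEP21N labelled with overexpression. Every adherent line lay below the neuroblastic ones, but GI-ME-N came close to them, on both of its arrays. The difference was 5.26 ± 1.60 (log2; limma adjusted p = 0.190), and without GI-ME-N it was 7.39 (adjusted p = 0.0257). With any other independent line left out it was 3.29 to 5.47 and not called (limma adjusted p = 0.272 to 0.391).

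STX1A, the syntaxin that pairs with SNAP25, had 309 in LAN-1 to 1027 in SK-N-SH and a median of 584. In the adherent lines STX1A had 220.5 in ACN, 382 in GI-ME-N, 60.0 in SHEP-2, 193 in SHEP21N and 372 in SHEP21N labelled with overexpression, which overlaps the neuroblastic range. The vesicle SNAREs VAMP1 and VAMP2 had medians of 241 and 669 in the neuroblastic and 483 and 345 in the adherent lines. Their differences were -0.49 and 1.21 (log2; limma adjusted p = 0.829 and 0.465), and both were above the array median in all 11 lines in normoxia.

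The priming and clamping factors held 4 calls among 5 genes. CPLX1, a complexin that holds assembled SNARE complexes before calcium arrives, had normoxic signals of 197 in SK-N-F1 to 3106 in IMR-32, with a median of 1557. Adherent lines had CPLX1 at 5.99 in ACN, 3.05 in GI-ME-N, 10.1 in SHEP-2, 7.70 in SHEP21N and 38.0 in SHEP21N labelled with overexpression. SK-N-F1 was low for its class and still above every adherent line. The difference was 7.6 ± 0.89 (log2; limma adjusted p = 0.00590).

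CPLX2, its close relative, had 294 in SK-N-F1 to 1616 in IMR-32 and a median of 1074, so SK-N-F1 was the lowest neuroblastic line for both complexins. Its adherent signals were 29.8 in ACN, 28.3 in GI-ME-N, 31.9 in SHEP-2, 18.3 in SHEP21N and 47.0 in SHEP21N labelled with overexpression. The difference was 4.97 ± 0.62 (limma adjusted p = 0.00801). UNC13A, the priming factor that opens syntaxin, had 353 to 613 in the neuroblastic lines, the narrowest log2 spread of the 35 genes in that class (SD 0.19, n = 4). In the adherent lines it had 8.14 in GI-ME-N to 158 in SHEP-2, and the difference was 4.25 (limma adjusted p = 0.0205).

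The CADPS genes, which prime dense-core granules, ran in opposite directions. CADPS2 had 7.07 in GI-LI-N to 80.7 in IMR-32 in the neuroblastic lines, with a median of 23.8. The 5 adherent lines had 526 in ACN, 219 in GI-ME-N, 823 in SHEP-2, 768 in SHEP21N and 784 in SHEP21N labelled with overexpression. Every adherent line lay above every neuroblastic line. CADPS2 was lower in the neuroblastic lines by 3.99 on the log2 scale (limma adjusted p = 0.00859), the 1 call in that direction, and it was named after its values had been seen.

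CADPS had 227 in IMR-32 to 628 in LAN-1 in the neuroblastic lines, with a median of 348. On the adherent side it had 72.9 in ACN, 340 in GI-ME-N, 11.9 in SHEP-2, 7.70 in SHEP21N and 26.7 in SHEP21N labelled with overexpression. GI-ME-N lay within the neuroblastic range, and the difference of 2.77 ± 1.11 did not pass the limit (limma adjusted p = 0.312). With the mean of all CADPS probesets the difference was 0.99 (limma adjusted p = 0.56). GI-ME-N was also the lowest adherent line for CADPS2, so among adherent lines it had the most CADPS and the least CADPS2. A direct test of CADPS against CADPS2 was not made.

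**Figure D2:**
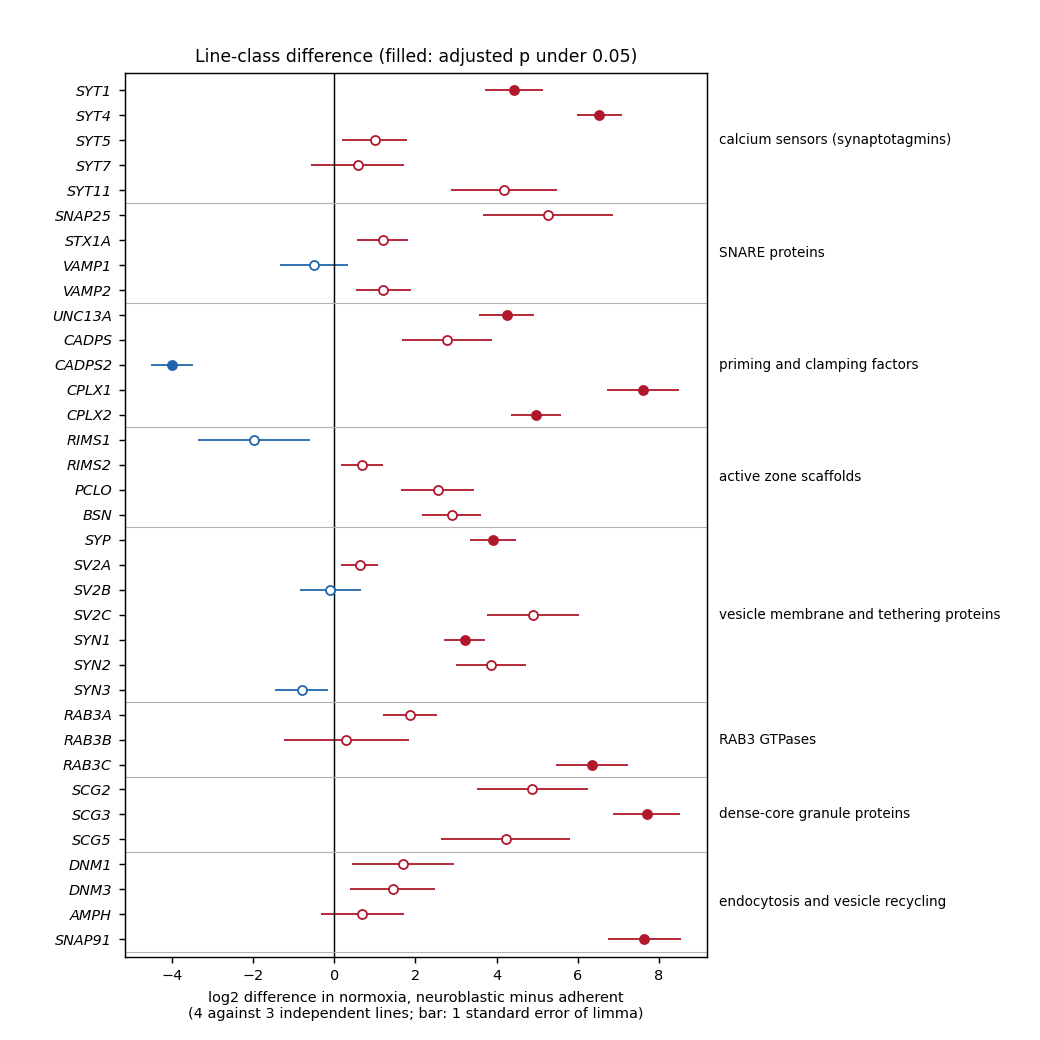
Log2 difference in normoxia, neuroblastic minus adherent, for each of the 35 genes by role (points: limma estimate from 4 against 3 independent lines; bars: 1 standard error; filled: adjusted p under 0.05; red: positive, blue: negative). SCG3, SNAP91 and CPLX1 lie beyond 7, and CADPS2 is the 1 filled point on the negative side.

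Of the active zone scaffolds, 0 of 4 passed the limit, with 2 at an unadjusted p under 0.05 in limma. BSN, which encodes bassoon, had 53.5 in SK-N-BE2(C) to 238 in the neuroblastic lines and 11.2 to 73.7 in the adherent lines. Its difference was 2.89 ± 0.73 (limma adjusted p = 0.115). The overlap lay between SK-N-BE2(C) and SHEP21N labelled with overexpression (73.7), whose normoxic array had the high 3′ to 5′ ratios.

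PCLO, the partner scaffold piccolo, had 143 in GI-LI-N, 203 in IMR-32, 1254 in SK-N-SH, 2185 in SK-N-BE2(C), 826 in SK-N-F1 and 1190 in LAN-1. Adherent lines had PCLO at 137 in ACN, 61.9 in GI-ME-N, 16085 in SHEP-2, 191 in SHEP21N and 143 in SHEP21N labelled with overexpression. The SHEP-2 signal was the brightest of the 11 lines and was 14992 in hypoxia, while the SHEP21N lines, of the same parental line, stayed at 85.0 to 198 on their 4 arrays. The difference was 2.55 ± 0.90 (limma adjusted p = 0.250).

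RIMS1 and RIMS2 encode scaffolds that tie RAB3 on vesicles to the release site. RIMS1 had 10.7 to 178 in the neuroblastic lines and 42.0 to 101 in the adherent lines other than GI-ME-N, where it had 1418. RIMS2 had 354 in SK-N-SH to 1002 in SK-N-BE2(C) in the neuroblastic lines. Its adherent signals were 480 in ACN, 338 in GI-ME-N, 2701 in SHEP-2, 492 in SHEP21N and 314 in SHEP21N labelled with overexpression. The classes overlapped for both, and their differences were -1.97 and 0.69 (limma adjusted p = 0.561 and 0.587).

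Among the 7 vesicle membrane and tethering proteins, SYP and SYN1 passed the limit. SYP, encoding synaptophysin, an abundant vesicle protein used as a marker of neuroendocrine tumors, had 125 to 752 in the neuroblastic lines with a median of 296. In the adherent lines SYP had 11.3 to 25.7 and was below the array median in every one. The difference was 3.92 ± 0.57 (limma adjusted p = 0.0136), and 2.45 with signals below 50 set to 50 (adjusted p = 0.0283).

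SYN1, encoding the synapsin that tethers vesicles to actin, had 226 in LAN-1 to 850 in IMR-32 in the neuroblastic lines, with a median of 455. Among the adherent lines it had 46.8 in ACN, 39.0 in GI-ME-N, 46.4 in SHEP-2, 96.0 in SHEP21N and 59.0 in SHEP21N labelled with overexpression, which do not overlap the neuroblastic ones. The difference was 3.22 ± 0.50 (limma adjusted p = 0.0183). It was 2.16 and not called with the mean of both SYN1 probesets.

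SV2A, SV2B and SV2C encode transporter-like glycoproteins of the vesicle. SV2A was bright in every line, with 1296 to 3195 in the neuroblastic and 1071 to 1491 in the adherent lines in normoxia (difference 0.63, limma adjusted p = 0.566). SV2C had 229 in LAN-1 to 4366 in SK-N-F1 against 6.79 to 194 in the adherent lines (difference 4.90, adjusted p = 0.0888). SV2B was at most 209 in any normoxic line, with 12.4 to 88.9 in the neuroblastic and 23.0 to 209 in the adherent lines, and its difference was -0.09 (adjusted p = 0.969). The 3 SV2 genes thus ranged from one read in all lines to one read mostly in the neuroblastic lines and one that was dim in all of them.

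The remaining synapsins also diverged. SYN2 had 193 in LAN-1 to 3218 in SK-N-F1 against 51.8 to 181 (difference 3.86, limma adjusted p = 0.0787). SYN3 had at most 106 in normoxia and lay below the array median on 21 of 22 arrays.

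The RAB3 GTPases mark vesicles ready for release, and each of the 3 had its own pattern. RAB3C had 177 in IMR-32 to 1157 in LAN-1 and a median of 290 in the neuroblastic lines. Adherent signals were 24.3 in ACN, 1.96 in GI-ME-N, 5.22 in SHEP-2, 7.0 in SHEP21N and 12 in SHEP21N labelled with overexpression. The classes did not overlap, and the difference was 6.35 ± 0.89 (limma adjusted p = 0.0118).

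RAB3A had 290 in LAN-1 to 1239 in SK-N-BE2(C) against 62.0 in GI-ME-N, 165 in SHEP-2, 120 in SHEP21N, 219 in SHEP21N labelled with overexpression and 521 in ACN. ACN lay within the neuroblastic range, and the difference was 1.86 ± 0.66 (limma adjusted p = 0.259). RAB3B had 93.3 to 452 in the neuroblastic lines, and 1900 in GI-ME-N and 886 in SHEP-2 exceeded them all. Its difference was 0.30 (adjusted p = 0.947).

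Of the 3 dense-core granule proteins, SCG3 passed the limit. SCG3, a granin-like protein that helps sort granule cargo, had 3139 in GI-LI-N to 5261 in LAN-1, with a median of 3875. Its adherent signals were 115 in ACN, 14.8 in GI-ME-N, 6.48 in SHEP-2, 21 in SHEP21N and 4.0 in SHEP21N labelled with overexpression. The difference of 7.70 ± 0.83 (log2; limma adjusted p = 0.00451) was the largest of the 35 genes, and with signals below 50 set to 50 it was 6.24.

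SCG2, the granin secretogranin II, had 3183 in GI-LI-N, 1826 in IMR-32, 2338 in SK-N-SH, 9903 in SK-N-BE2(C), 18041 in SK-N-F1 and 13589 in LAN-1. Adherent lines had it at 199 in ACN, 2809 in GI-ME-N, 61.7 in SHEP-2, 118 in SHEP21N and 66.3 in SHEP21N labelled with overexpression. GI-ME-N lay within the neuroblastic range. The difference was 4.88 ± 1.37 (limma adjusted p = 0.154), and without GI-ME-N it was 6.63 (adjusted p = 0.0274). Leaving out any other independent line gave 3.73 to 5.53 and no call (limma adjusted p = 0.146 to 0.384).

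SCG5 encodes 7B2, the chaperone of the prohormone convertase PC2. It had 34.6 in GI-LI-N, 63.3 in IMR-32 and 51.9 in SK-N-SH, but 2939 in SK-N-BE2(C), 2700 in SK-N-F1 and 2792 in LAN-1. On the adherent side it had 25.8 in ACN, 32.7 in GI-ME-N, 2641 in SHEP-2, 99.0 in SHEP21N and 129 in SHEP21N labelled with overexpression. SCG5 was thus bright in 3 neuroblastic lines and 1 adherent line and low in the other lines, in both conditions, and its difference of 4.22 ± 1.59 did not pass the limit (limma adjusted p = 0.285). It was 1.86 with the 11 lines counted singly (adjusted p = 0.491) and 5.71 without the averaged line of IMR-32, SK-N-SH and GI-LI-N, where it was called (adjusted p = 0.0428). Without any other independent line it was 3.37 to 5.31 and not called (limma adjusted p = 0.298 to 0.537).

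**Figure D3:**
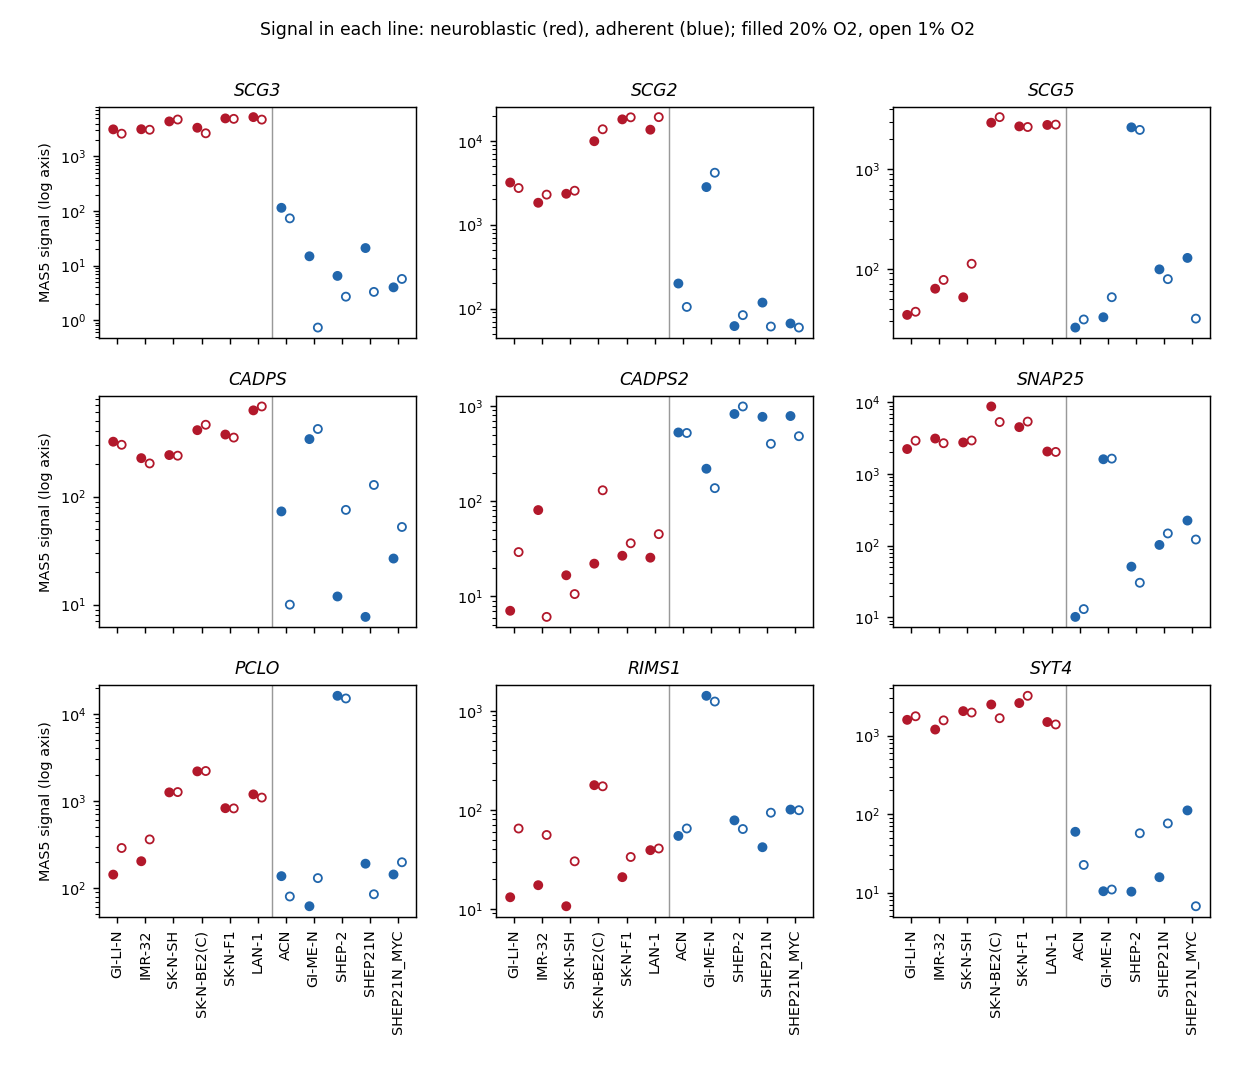
MAS5 signal (log axis, each panel with its own range) of 9 of the genes in each of the 11 cell lines, neuroblastic in red and adherent in blue, filled points at 20% O2 and open points at 1% O2, 1 array per point. SCG3, SYT4 and CADPS2 separate the classes in normoxia, SCG5 is bright in SK-N-BE2(C), SK-N-F1, LAN-1 and SHEP-2, and GI-ME-N stands above the other adherent lines for SCG2, SNAP25, CADPS and RIMS1.

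Of the 4 genes of endocytosis and vesicle recycling, SNAP91 passed the limit. SNAP91 encodes AP180, the neuronal clathrin assembly protein, and had 298 in GI-LI-N, 399 in IMR-32, 278 in SK-N-SH, 3356 in SK-N-BE2(C), 1088 in SK-N-F1 and 669 in LAN-1. In the adherent lines it had 10.9 in ACN, 1.31 in GI-ME-N, 8.53 in SHEP-2, 13.0 in SHEP21N and 17.0 in SHEP21N labelled with overexpression. The classes did not overlap, and the difference was 7.64 ± 0.89 (limma adjusted p = 0.00590).

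AMPH, encoding amphiphysin, had 505 in GI-LI-N, 723 in IMR-32 and 1220 in SK-N-SH against 43.0 in SK-N-BE2(C), 180 in SK-N-F1 and 36.7 in LAN-1, the reverse of the SCG5 pattern within the class. The adherent signals were 22.7 to 157, and the difference was 0.69 (limma adjusted p = 0.801). The dynamins DNM1 and DNM3, which cut vesicles from the membrane, had overlapping classes, with differences of 1.70 and 1.44 (adjusted p = 0.579 and 0.570). Both were lowest in ACN, at 34.8 and 7.33. Without ACN the difference of DNM3 was 0.07.

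The adherent lines were not alike in what they read of these genes. GI-ME-N had SNAP25, SCG2, RIMS1, RAB3B and CADPS at log2 levels of 4.51, 5.32, 4.33, 4.75 and 2.27 in normoxia, and SCG3, SNAP91, CPLX1 and RAB3C at 14.8 or less in signal. SHEP-2 had PCLO, SCG5 and RIMS2 at log2 levels of 6.91, 4.30 and 4.34. The neuroblastic lines IMR-32, SK-N-SH and GI-LI-N shared low SCG5 and high AMPH. These patterns were described after the values had been seen and carry no test.

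Signals in the adherent lines were often close to the lowest on the array, so the folds of CPLX1 (195-fold), SCG3 (208-fold), SNAP91 (200-fold) and RAB3C (81.4-fold) rest on values near the background. With signals below 50 set to 50, their log2 differences were 4.64, 6.24, 4.49 and 3.54, each still past the limit in limma, and SYT4 came next to SCG3 among the 10, at 5.34. Of the 35 genes, 21 had more than 1 probeset. Of the 47 other probesets, 37 had a difference of the same sign as the brightest one, and of the 18 whose mean was above the array median, 15 did. On the hypoxic arrays 10 of the 35 genes were again higher in the neuroblastic lines. CPLX2 and SYP were no longer among them, BSN and SYN2 were, and CADPS2 was no longer called lower (difference -2.87, limma adjusted p = 0.147). Over all 19775 genes 199 were called higher and 81 lower on the hypoxic arrays, against 224 and 92 in normoxia.

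Some calls were lost when a single line was left out, mostly with differences close to those over all lines. Calls over all genes fell as well, from 224 higher to between 119 and 207. Without ACN, or without the SHEP lines, 7 genes were called higher, and without GI-ME-N 12 were. SYT1 was no longer called without ACN, LAN-1, SK-N-F1, the SHEP lines or the averaged line of IMR-32, SK-N-SH and GI-LI-N, with differences of 3.89 to 4.37. UNC13A was no longer called without ACN, LAN-1, SK-N-BE2(C) or that averaged line, with differences of 4.13 to 4.22, nor on the deposited scale (4.0, adjusted p = 0.0646). SYN1 was no longer called without ACN, SK-N-BE2(C), the SHEP lines or that averaged line, with 2.99 to 3.35, and SYP without the SHEP lines, with 3.64. SYT4, CPLX1, RAB3C, SCG3 and SNAP91 were called in all 19 alternatives run, in which each independent line was left out in turn and the scaling, probesets and counting of lines were changed.

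Lists of related genes were set beside the 35. Of 31 other neuronal exocytosis genes 27 were measured, and 2 were higher in the neuroblastic lines and 0 lower. They were RIMBP2, which links RIM proteins to calcium channels (6.23, limma adjusted p = 0.0275), and CACNA1B, the N-type calcium channel (5.46, adjusted p = 0.0435). SYT17 had a difference of 2.95 (adjusted p = 0.132). The median difference of this list was 1.58.

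Of 11 other dense-core granule genes 9 were measured, all 9 with a positive difference and a median of 3.60. The granins CHGB (7.03, limma adjusted p = 0.0258) and CHGA (6.73, adjusted p = 0.00830) and PCSK1N, which encodes proSAAS, an inhibitor of prohormone convertase 1 (3.60, adjusted p = 0.0192), were higher in the neuroblastic lines. Of 20 exocytosis genes that are also used outside neurons 0 were called in either direction, with 4 at an unadjusted p under 0.05 and a median difference of -0.64. VAMP8, RAB27A and RAB3D, known from granule secretion in non-neuronal cells, had the smallest p there, with differences of -3.21, -1.93 and 1.46 (limma adjusted p = 0.216, 0.234 and 0.298). Of the 16 general endocytosis genes 0 were called, with 1 at an unadjusted p under 0.05. SYNJ2, AP2A2 and SH3GL2 had differences of -2.25, 0.81 and 2.77 (adjusted p = 0.159, 0.504 and 0.536), and the median was 0.11.

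Hypoxia was compared with normoxia within each line. Of the 35 genes, 0 rose and 0 fell (limma with the line as a block, 11 lines), and a test paired by line called 0 as well. Adding a change of at least 2-fold to limma can only remove calls, so that alternative was no further test. The study's methods name a test with Benjamini-Hochberg correction after selecting probesets changed at least 2-fold, and do not say that it was paired. Over all genes 0.147% rose and 0.0152% fell past the adjusted limit. At an unadjusted p under 0.05, 4 of the 35 were higher and 0 lower, against 711 higher and 1398 lower of all 19775 genes. The median change of the 35 genes was -0.01 on the log2 scale, against -0.04 over all genes.

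The 4 were SYP, RIMS1, RAB3A and SYT11. SYP went from 213 to 839 in GI-LI-N, 752 to 999 in IMR-32, 379 to 528 in SK-N-SH, 388 to 530.1 in SK-N-BE2(C), 125 to 94.9 in SK-N-F1 and 145 to 147 in LAN-1. In the adherent lines it was at most 77.2, in hypoxic SHEP-2, in either condition. Relative to the array median it was higher in 8 of 11 lines, with a mean change of 0.75 ± 0.29 (log2, standard error, n = 11; limma adjusted p = 0.400). The change was 0.29 with signals below 50 set to 50 and 0.43 with related lines averaged (adjusted p = 0.555 and 0.609). RIMS1 had a mean change of 0.62 ± 0.26 and was higher in 7 of 11 lines (adjusted p = 0.431), and with the mean of all its probesets the change was -0.04. RAB3A had 0.49 ± 0.22 in 8 of 11 lines (adjusted p = 0.448), with its greatest change in GI-LI-N, from 376 to 1602.

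SYT11 was higher in 10 of 11 lines, with GI-ME-N from 461 to 504, LAN-1 from 2844 to 3764 and ACN from 15.6 to 120. Its mean change was 0.52 ± 0.24 (limma adjusted p = 0.466), and it was 0.28 without ACN. DNM1 and SCG3 came next, with 0.51 ± 0.24 in 9 lines and -0.86 ± 0.43 with 2 lines higher (adjusted p = 0.480 and 0.507). The changes of SCG3 were large where its signals were low. In GI-ME-N it went from 14.8 to 0.73, while in the 6 neuroblastic lines it was 3139 to 5261 in normoxia and 2616 to 4890 in hypoxia.

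**Figure D4:**
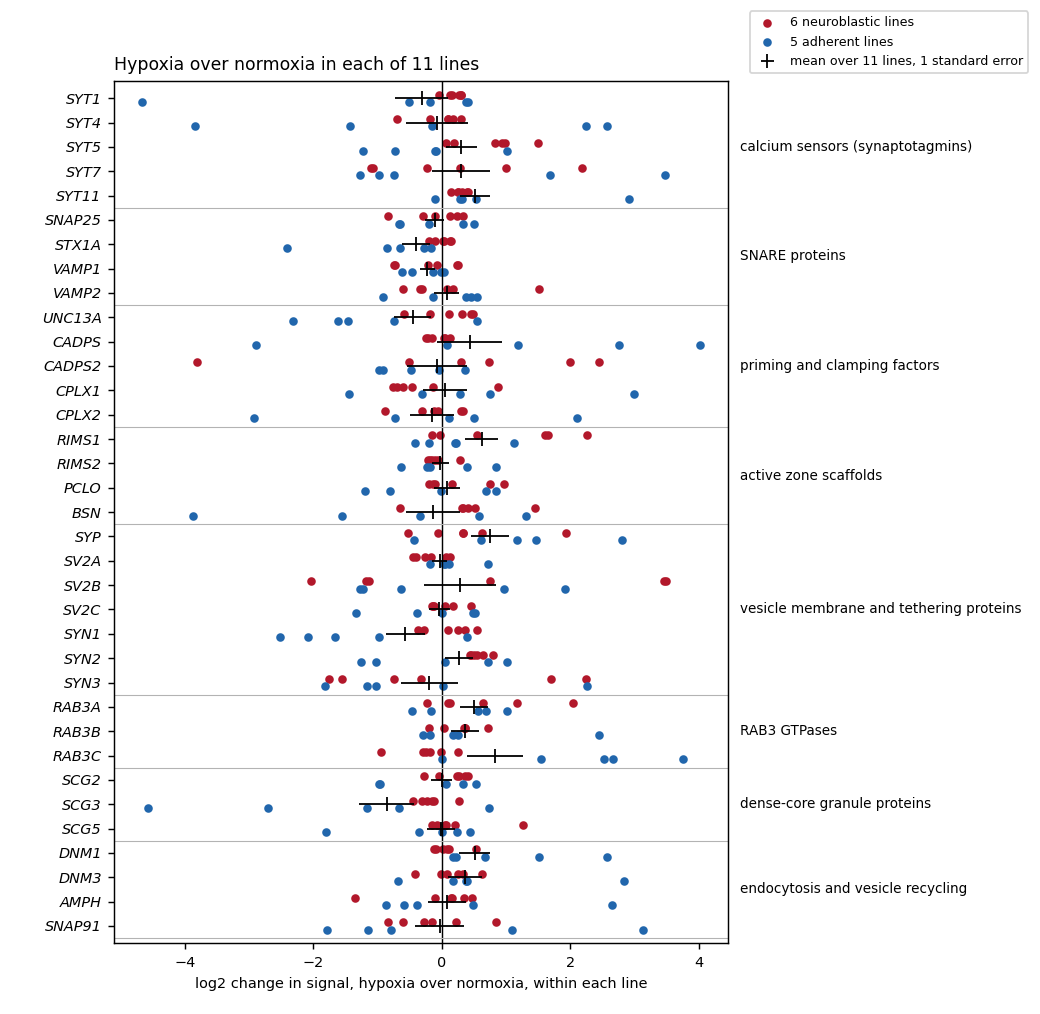
Log2 change in signal from normoxia to hypoxia for each of the 35 genes, 1 point per cell line (6 neuroblastic in red, 5 adherent in blue), with the mean over 11 lines and 1 standard error in black. The neuroblastic points lie close to 0 for most genes, the adherent points spread further, and 0 of the 35 genes passed the adjusted limit.

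The size of the changes was counted by class, with no test. In the neuroblastic lines 12.4% of the 210 changes exceeded 2-fold, and in the adherent lines 36.0% of 175 did, with median absolute log2 changes of 0.30 and 0.68. The same was not counted over all genes. Over all probesets the 2 arrays of a line correlated at 0.895 to 0.921 in the neuroblastic lines. The adherent values were 0.820 in ACN, 0.832 in SHEP-2, 0.881 and 0.859 in SHEP21N without and with overexpression, and 0.923 in GI-ME-N. Whether the wider spread is particular to the 35 genes was not tested. In SHEP21N labelled with overexpression, whose normoxic array had the high 3′ to 5′ ratios, 15 of 35 genes changed by more than 2-fold, SYT1 from 315 to 10.7 among them, and in ACN 15 did. The part of the low signals and of that array in this spread was not tested.

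The 95% confidence interval of the change lay within 2-fold in either direction for 19 of the 35 genes over all 11 lines and for 26 over the 6 neuroblastic lines. SYT1 had 0.18 (-0.05 to 0.41) and SYT4 -0.04 (-0.41 to 0.33) over the 6 neuroblastic lines. These intervals count IMR-32, SK-N-SH and GI-LI-N singly, and over the 11 lines the SHEP lines as well, so they may be too narrow. In these 6 lines alone, a comparison added after the data had been seen, 0 of the 35 genes passed the limit, with 4 at an unadjusted p under 0.05. Over all genes, only 4 passed the limit in these 6 lines, so the absence of calls among the 35 does not set them apart. No share of all genes at an unadjusted p under 0.05 is given for this comparison. The 4 of 35 at that level therefore cannot be read as an excess. SYN2 was higher in 6 of 6 (0.56, 0.34 to 0.79; limma adjusted p = 0.260), as was SYT5 (0.75, 0.24 to 1.26; adjusted p = 0.393).

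Of the related genes, SYNPR passed the limit in hypoxia over the 11 lines, with a change of 1.22 (limma adjusted p = 0.0437) and a higher level in 11 of 11 lines. It encodes synaptoporin, a relative of synaptophysin. SK-N-F1 went from 270 to 512. In the other lines SYNPR had 2.63 to 41.7 in normoxia and 6.56 to 137 in hypoxia, mostly below the array median. The call was lost when any single line was left out, with changes of 1.09 to 1.32 (adjusted p = 0.0508 to 0.134), and with related lines averaged (1.31, adjusted p = 0.334). With signals below 50 set to 50 the change was 0.24 (adjusted p = 0.526).

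The change in hypoxia was also compared between the classes. Of the 35 genes, 0 had a different change (limma on the within-line changes, 6 against 5 lines), and 0% of all genes did. At an unadjusted p under 0.05 there were 6 of the 35, against 1046 of all 19775 genes. RAB3C had a mean change of -0.24 ± 0.40 (SD, n = 6) in the neuroblastic and 2.09 ± 1.41 (SD, n = 5) in the adherent lines (limma adjusted p = 0.842). Its adherent signals went from 24.3 to 71.9 in ACN, 1.96 to 14.6 in GI-ME-N, 5.22 to 65.6 in SHEP-2, 7.0 to 41.3 in SHEP21N and 12 to 10.3 in SHEP21N labelled with overexpression, all below the neuroblastic signals. SYN1, UNC13A and SYT5 had differences in change, neuroblastic minus adherent, of 1.47, 1.21 and 0.98 (adjusted p = 0.890, 0.907 and 0.907). In the neuroblastic lines their mean changes were 0.10, 0.09 and 0.75.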

How the data were processed

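Probeset intensity was computed by the authors in Affymetrix Microarray Suite (MAS5, also named in the submitters' processing notes), with arrays scaled to an average of 500. The values were deposited as 1 linear signal per probeset and array, without detection calls, and those of SHEP21N had 1 decimal. The median signal was 69.4 to 133.6 on the 22 arrays, whose number limits the precision. Signals were divided by the median of their array, as in the authors' methods, before log2. Of 54675 probesets, 41097 name a single gene, 1801 several and 11777 none, with symbols updated through Entrez identifiers. Classes and conditions were compared with limma 3.58.1 (R 4.3.3; Python 3.11.15) over all 19775 genes, with Benjamini-Hochberg adjustment. The p-values measure the spread between lines. The scripts were tested on simulated data. There limma called 0 of 100 genes planted with a class difference of 2 on the log2 scale, and 1 of 100 at 4. For hypoxia it called 43 of 100 at a change of 1 and 73 of 100 at 2. For the difference in hypoxia change it called 39 of 100 at 2 and 78 of 100 at 4. A gene that did not pass the limit may therefore still differ.

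The 35 genes, the gene lists and the line classes were chosen with earlier results of these data known. Values were named for the 2 genes with the smallest p of each of the 8 roles and the 1 with the largest p in roles of 4 or more, 6 genes for hypoxia, 4 for the class difference in hypoxia, 3 of each related list of 8 or more, REST and MYCN. Genes named beyond that rule were chosen after their values were seen. The related lists were other neuronal exocytosis genes, other dense-core granule genes, exocytosis genes also used outside neurons, general endocytosis genes, partners of REST and markers of adrenergic, mesenchymal, Schwann, leukocyte and endothelial cells. Alternatives were the deposited scale, quantile normalization, a floor of 50, a minimum mean signal of 100, all probesets of a gene, other ways of counting related lines, each line left out, no block and a test paired by line. Tumor profiles were not analysed here.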

Additional observations from a re-analysis of the deposited data

Results flagged for a closer look

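Within each class of lines, a single line stood apart from the rest by the gap to its neighbour in 17 of 140 sets of values, 70 of levels in normoxia and 70 of changes in hypoxia over the 35 genes. For independent and normally spread values chance flags about 1 in 20 such sets, which here is 7. Related lines were counted singly, so the 17 cannot be read as an excess over the 7. By level in normoxia (log2 of signal over array median), GI-ME-N was the highest adherent line for SCG2 (5.32) and RIMS1 (4.33), and SHEP-2 was the highest for PCLO (6.91) and the lowest for AMPH (-2.56). ACN was the lowest adherent line for DNM3 (-4.14) and SYT11 (-3.05). Among the neuroblastic lines, SK-N-F1 was lowest for CPLX1 (1.31), SK-N-BE2(C) was lowest for BSN (-0.93) and IMR-32 was highest for SV2A (5.12).

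By log2 change in hypoxia, SHEP21N labelled with overexpression was the lowest adherent line for SYT1 (-4.66) and the highest for RAB3B (2.44). Its normoxic array had the high 3′ to 5′ ratios, and the part of that array in these changes was not tested. ACN was the highest adherent line for SYT11 (2.92). Among the neuroblastic lines, GI-LI-N was highest for VAMP2 (1.52) and DNM1 (0.52), SK-N-SH was highest for SCG5 (1.26) and RIMS2 (0.28), and SK-N-F1 was lowest for AMPH (-1.36).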

How the results depend on the processing

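The count of genes higher in the neuroblastic lines was 10 in 4 against 3 independent lines and 18 with the 11 lines as labelled, where related lines count singly. The other alternatives, with the deposited scale, quantile normalization, a floor of 50, a minimum mean signal of 100 and all probesets among them, gave 9 to 13, and leaving out each independent line gave 7 to 12. CADPS2 was the 1 gene lower in each of these except on the hypoxic arrays, where 0 were lower. For hypoxia the line block pairs the 2 arrays of a line, since both come from the same cell line, and 0 genes rose or fell with the block, with no replicate block and in every other alternative run. The difference in hypoxia change between the classes gave 0 genes in every alternative run. None of the called differences changed sign. Signals under about 50 lie near the background of these arrays, and no detection calls were used, so small folds among low genes were not detectable.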
